A study of Rattus norvegicus with 2 samples.

Results

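The comparison described here is that of the failing with the control left ventricle (LV) of Dahl salt-sensitive (DS) rats, made on 1 array of the 2 in the series. The HF group [HS (−)] was fed 8% NaCl and the control group [NS (−)] 0.3% NaCl. Both were male DS rats without chaetocin, an inhibitor of histone methyltransferases that the study gave to other rats. DS rats become hypertensive on a high-salt diet, and failure was reached at around 13 weeks of age. RNA from 3 rats was pooled in each group. HS (−) RNA carried the red dye Cy5 and NS (−) RNA the green dye Cy3. The other array held the same labelled group HS (−) in Cy5 again, beside the chaetocin group, and only that repeat HS (−) reading is used below. With 1 pool per group, 1 array and no dye swap, no p-value was calculated, and differences between rats and between the dyes cannot be told apart from the diet. In LV tissue, fewer cells of a type and less RNA per cell cannot be told apart either.

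The array carries 1 spot for each of 20174 genes. Of these, 12674 (62.8%) had a ratio, because both colors exceeded the mean of the 4553 blank spots by more than 2 SD. The signal of a gene is its brightness minus the blank mean, and its level is the geometric mean of the HS (−) and NS (−) signals. The ratio HS (−)/NS (−) was centered on the median of the array, which multiplied HS (−) signals by 1.12. The values nearest the limits were HS (−) signals of 1.473 and 1.469 and NS (−) signals of 3.982 and 3.976, just inside and just outside. A level of at least 100 was reached by 4276 genes, 33.7% of those with a ratio.

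The pressure-loaded heart is known to change its contractile and metabolic genes. In rodents the fast alpha myosin heavy chain gives way to the slow beta form, the oxidation of fatty acids declines, and fetal genes return. The genes of glycolysis, of the pyruvate dehydrogenase complex and of the respiratory chain supply the ATP that contraction uses.

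The array files list Ensembl IDs without symbols. Names were at hand for 50 genes, all of which had a ratio under 0.5 in this comparison, since the study chose them on this array for that fall, together with a higher level in the chaetocin group. Their direction is therefore no finding, and what follows gives their sizes, their repeat readings and their stability. Of 10 ventricular muscle markers on the list used here only Myh6 had an ID, and of 8 endothelial markers only Car4. Both read above the blank limit in both groups. The natriuretic peptide genes and the other cell type markers were not analysed here.

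At a level of at least 100, 132 genes (3.09%) had a ratio over 2 and 79 genes (1.85%) a ratio under 0.5. Over all levels 554 genes (4.37%) were over 2 and 421 (3.32%) under 0.5. Most genes at a level of at least 100 moved little, as 82.1% of them lay within 1.5-fold of no change. Among all 12674 genes with a ratio the share was 77.4%. The balance of rise and fall turned with the size of the change. At 1.2-fold, 1318 genes were lower and 824 higher in HS (−), and at 1.5-fold 454 were lower and 310 higher. At 3-fold the counts were 14 lower and 66 higher, at 4-fold 6 lower and 47 higher, and at 8-fold 0 lower and 25 higher. With this processing, small changes were more often falls and large changes more often rises.

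**Figure D1:**
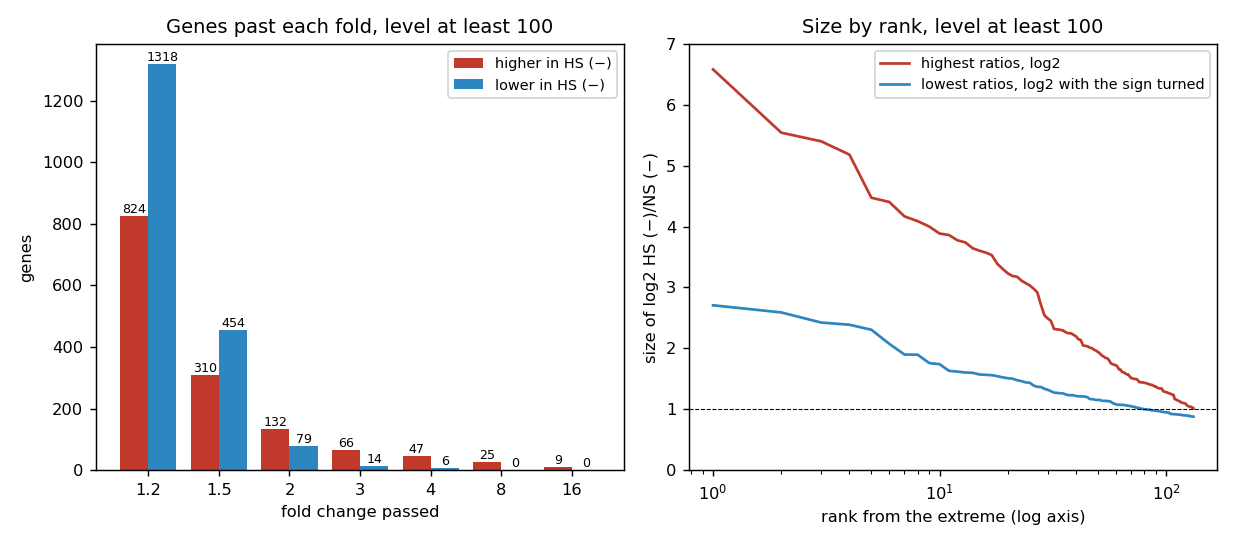
Left, genes with a level of at least 100 (n = 4276) past each fold change, in red where HS (−) was higher and in blue where it was lower, on 1 array; right, the size of the log2 ratio against the rank from each extreme, with the rank on a log axis and the 2-fold limit dashed. Falls outnumber rises up to 1.5-fold, and from 2-fold on rises outnumber falls, with 25 against 0 at 8-fold, whereas with the brightness around each spot subtracted 104 genes rose and 181 fell past 2-fold.

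This split depends on the centering, also at 2-fold if the positive control spots given below are taken for it. The median of the genes at a level of at least 100 was −0.06 on the log2 scale, since the centering used all levels. Centered on these genes alone, 381 were higher and 349 lower at 1.5-fold, and 152 higher and 66 lower at 2-fold. The 2-fold split also changed with the background. With the brightness around each spot subtracted in place of the blank mean, 104 genes were over 2 and 181 under 0.5, and with no subtraction the counts were 229 and 23. With loess, a correction of the trend with level, they were 158 and 63, and with loess within each of the 48 printing blocks 145 and 58. Where the minimum of 100 was set on the HS (−) signal alone, 172 genes were over 2 and 57 under 0.5. Where it was set on the NS (−) signal alone, the counts were 90 and 105. A minimum on 1 signal favors the genes that are high in that pool. With both signals at least 100, 90 genes were over 2 and 57 under 0.5. The 7 recalculations covered 4 background treatments, both forms of loess and the repeat HS (−) reading. In every one of them the 132 and 79 genes kept their direction. These genes were chosen past 2-fold on this array, and all 7 used its NS (−) reading. Their kept direction is therefore no finding. Past 2-fold in all 7 were 89 of the 132 rises and 19 of the 79 falls.

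The rising genes had the longer tail. The 10th highest ratio was 14.8, against 3.34-fold lower for the 10th lowest, and the 50th highest was 3.84, against 2.22-fold lower for the 50th lowest. The median ratio was 2.99 among the 132 risen genes and 0.431 among the 79 fallen genes. The risen genes made up 13.2% of the summed HS (−) signal of all genes and 1.97% of the summed NS (−) signal. The fallen genes made up 1.04% and 3.28%. Both sets were chosen by ratio, so only the size of these differences is described, not their direction. The summed signals themselves were 4775090 in HS (−) and 5154530 in NS (−).

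A small group of very bright spots carried most of the first difference. An HS (−) signal of 5000 or more was found in 20 risen genes, and they held 11.1% of the HS (−) and 1.33% of the NS (−) brightness. They were chosen by HS (−) signal and ratio, so a larger share in HS (−) follows from the choice. Of these, 10 were more than 8-fold higher in HS (−), with ratios from 8.41 to 42.3 and a median of 15.4. Their HS (−) signals ran from 6821 to 65510, with a median of 43544, and their NS (−) signals from 663 to 3753, with a median of 2600. In each of them both HS (−) readings lay far above the NS (−) reading. The repeat readings ran from 7657 to 65400, or 0.914 to 1.37 times the first. The 10 genes together held 7.96% of the HS (−) brightness and 0.450% of the NS (−) brightness. Each of them was past 2-fold in all 7 recalculations, where their lowest ratio was 6.99. As they were chosen past 8-fold on this array, passing 2-fold again is no independent result. In 1 of the 10 the HS (−) spot was saturated, so its ratio of 22.2 is a lower limit. On the falling side, 3 genes had an NS (−) signal of at least 5000. None of the 132 risen genes was among those with a name, so these bright spots stay without one here.

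The other 15 genes more than 8-fold higher had HS (−) signals from 328 to 4818, with a median of 964, and NS (−) signals from 15.9 to 579, with a median of 78.0. The NS (−) signal was under 100 in 10 of them. With this processing, ENSRNOG00000019183 had the highest ratio of the array. It read 1358 in HS (−), 1657 in the repeat reading and 15.9 in NS (−), a ratio of 95.8. ENSRNOG00000006151 came next, with 4818 in HS (−), 5060 in the repeat reading and 116 in NS (−), a ratio of 46.6. In both, the readings of the HF group lay close together and far above the control reading. The control was read once, and the order of the 2 genes changed with the background. With normexp and loess their log2 ratios were 3.35 and 5.11, and with 50 added 4.47 and 4.93. With the brightness around each spot subtracted they were 5.32 and 5.44, and with no subtraction 5.02 and 5.47. With loess alone (6.64 and 5.64) and with the repeat HS (−) reading (6.69 and 5.44), ENSRNOG00000019183 stayed the higher.

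The 10 lowest ratios ran from 3.34-fold to 6.53-fold lower in HS (−). The first 4 had no name. ENSRNOG00000018794 read 433 in NS (−), 59.0 in HS (−) and 72.8 in the repeat reading, and was 6.53-fold lower. ENSRNOG00000022298 read 537, 79.4 and 91.1, and was 6.02-fold lower. Both fell to signals under 100, the number that the study set as a minimum for its list on a normalized scale of its own. Then came Myh6, Dhrs7c and Pdp2, and Scn4b was the 10th. The NS (−) spot of Myh6 was saturated, so that its fall is a lower limit and its place among the first 5 is not settled. The order also changed with the background. For ENSRNOG00000018794, ENSRNOG00000022298 and Myh6 the log2 ratios were −2.71, −2.59 and −2.31 here. With normexp and loess they were −1.17, −1.37 and −2.49, and with 50 added −2.09, −2.13 and −2.41. With the brightness around each spot subtracted they were −2.31, −2.24 and −2.74. With no subtraction, loess alone or the repeat reading, Myh6 fell less than both.

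**Figure D2:**
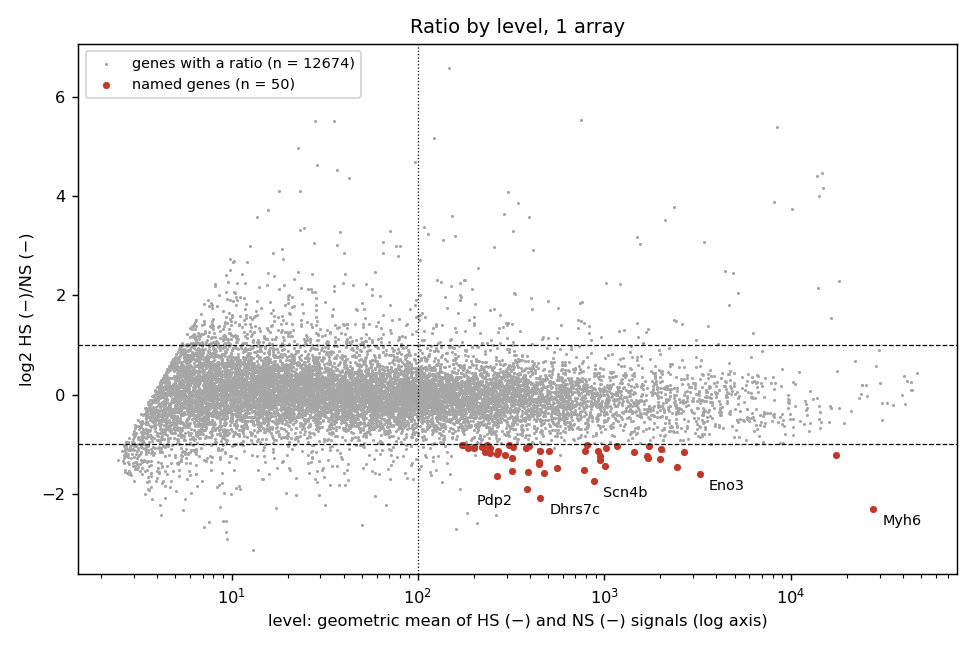
Log2 HS (−)/NS (−) against level, the geometric mean of both blank-subtracted signals on a log axis, for 12674 genes (gray), with the 50 named genes in red; dashed lines mark 2-fold, the dotted line a level of 100. The cloud reaches log2 6.58 above and −2.71 below at a level of at least 100, and a few bright spots lie alone at the upper right.

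All 50 named genes had a level of at least 100 and made up 50 of the 79 falls. Their ratios ran from 0.202 to 0.498, with a median of 0.446. The 29 falls without a name had a median ratio of 0.417, and in 22 of them the HS (−) signal was under 100. The study set its minimum of 100 on a normalized expression level, whose scale was not matched to the signals here. The 5 largest named falls were those of Myh6, Dhrs7c, Pdp2, Scn4b and Fkbp4.

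Among genes of muscle structure and the sarcoplasmic reticulum, Myh6 encodes the alpha myosin heavy chain, the fast motor of the rodent ventricle. It read 65487 in NS (−), where the spot was saturated, 11788 in HS (−) and 15969 in the repeat reading. As the saturated value is a lower limit, Myh6 was at least 4.34-fold lower in HS (−) after loess and Aquantile scaling. The ratio on the values as used elsewhere was 0.202. The limit covers saturation only, not the choice of processing or HS (−) reading. The log2 ratio was −2.12 with loess, −2.04 with the repeat HS (−) reading and −1.89 with no subtraction. Dhrs7c, a dehydrogenase of the sarcoplasmic reticulum, read 989 in NS (−), 209 in HS (−) and 233 in the repeat reading, a ratio of 0.238. Both readings of the HF group were far under the control. Rtn2, a reticulon at the Z-band, and Txlnb, a muscle taxilin, had the ratios 0.476 and 0.480 at NS (−) signals of 287 and 305.

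Of the genes of ion transport, Scn4b, the beta-4 subunit of the voltage-gated sodium channel, read 1711 in NS (−), 456 in HS (−) and 381 in the repeat reading, a ratio of 0.299. The repeat reading of Scn4b lay below the first and thus further from the control.

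Of the enzymes of glycolysis, Eno3, the muscle enolase, read 5987 in NS (−), 1760 in HS (−) and 2303 in the repeat reading, a ratio of 0.330. Pgam2, the muscle phosphoglycerate mutase, read 3146, 1303 and 1281, a ratio of 0.466. These are the muscle forms of consecutive steps of the pathway, the mutase before the enolase.

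The 7 genes of pyruvate and lipid metabolism had ratios from 0.268 to 0.498. Pdp2, a phosphatase that switches the pyruvate dehydrogenase complex on, read 787 in NS (−), 188 in HS (−) and 208 in the repeat reading, a ratio of 0.268. Lpin1, which makes diacylglycerol and acts as a coactivator of fat oxidation genes, read 581, 177 and 202, a ratio of 0.343. Hadh, the dehydrogenase of the third step of beta-oxidation for shorter chains, read 3325, 1204 and 1338, a ratio of 0.407. The falls of these genes were larger than those of the others in the group. Eci2, an isomerase needed for unsaturated fatty acids, had a ratio of 0.476, and Acot13, an acyl-CoA thioesterase, 0.488. Chpt1, the last enzyme of a route to phosphatidylcholine, and the carboxylesterase Ces3 lay at the limit, at 0.497 and 0.498.

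The 10 genes of the respiratory chain and of other mitochondrial proteins had ratios from 0.360 to 0.497 with a median of 0.444. NU3M_RAT, the subunit 3 of complex I that mitochondrial DNA encodes, read 28350 in NS (−), 10860 in HS (−) and 13615 in the repeat reading, a ratio of 0.431. Ndufs8, a subunit of the same complex with iron-sulfur clusters that the nucleus encodes, read 2643, 1141 and 1300, a ratio of 0.485. The pair thus came from both genomes. Macrod1, a macrodomain hydrolase of mitochondria, had a ratio of 0.360, Mtfp1, which takes part in mitochondrial fission, 0.382, and Ecsit, an assembly factor of complex I, 0.426. Ppa2, the mitochondrial pyrophosphatase, read 525 in NS (−), 193 in HS (−) and 335 in the repeat reading. This was the largest disagreement between the HS (−) readings among the 50 genes, 1.57-fold after centering, and the ratio of 0.414 rests on the lower of them. Bola3, which serves iron-sulfur cluster assembly, Adhfe1, an alcohol dehydrogenase, Mrpl19, a protein of the mitochondrial ribosome, and Suox, the sulfite oxidase, had ratios from 0.457 to 0.497.

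Of the 9 genes of signaling, chaperones and RNA, Fkbp4, a co-chaperone of steroid receptors, read 495 in NS (−), 142 in HS (−) and 163 in the repeat reading, a ratio of 0.323. Rbfox1, a splicing factor of heart and brain, read 1391, 435 and 471, a ratio of 0.351. Dusp1, a phosphatase of MAP kinases that is induced early after stress, read 1586, 565 and 672, a ratio of 0.401. These were the leading members of the group, with Rpl3l, the muscle form of a ribosomal protein, at 0.415. Lnx1, Mlf1, Impa2, Ppp1r14c and Tardbp had ratios from 0.447 to 0.492. Tardbp, an RNA-binding protein, read 265 in NS (−), 116 in HS (−) and 179 in the repeat reading, so its fall was much smaller with the latter.

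Among genes of the cell surface and matrix, Cd74, the invariant chain of MHC class II molecules, read 4345 in NS (−), 1404 in HS (−) and 2044 in the repeat reading, a ratio of 0.363. Wfdc1, a secreted protein with a WAP domain, read 868, 260 and 335, a ratio of 0.337. Car4, the membrane-bound carbonic anhydrase of the capillary wall, had a ratio of 0.431, Col15a1, a basement membrane collagen, 0.436, and Hjv, a coreceptor of bone morphogenetic proteins, 0.454. Cd74 serves antigen presentation, and Car4 is an endothelial marker on the list used here, but the cells behind these signals were not tested. The other markers of immune and endothelial cells were not analysed here.

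The remaining 11 genes were 5 membrane proteins and enzymes, with ratios from 0.370 in Cmbl, a hydrolase, to 0.483 in Tecrl, a reductase-like protein of the endoplasmic reticulum, and 6 without a described function, from 0.388 to 0.476.

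**Figure D3:**
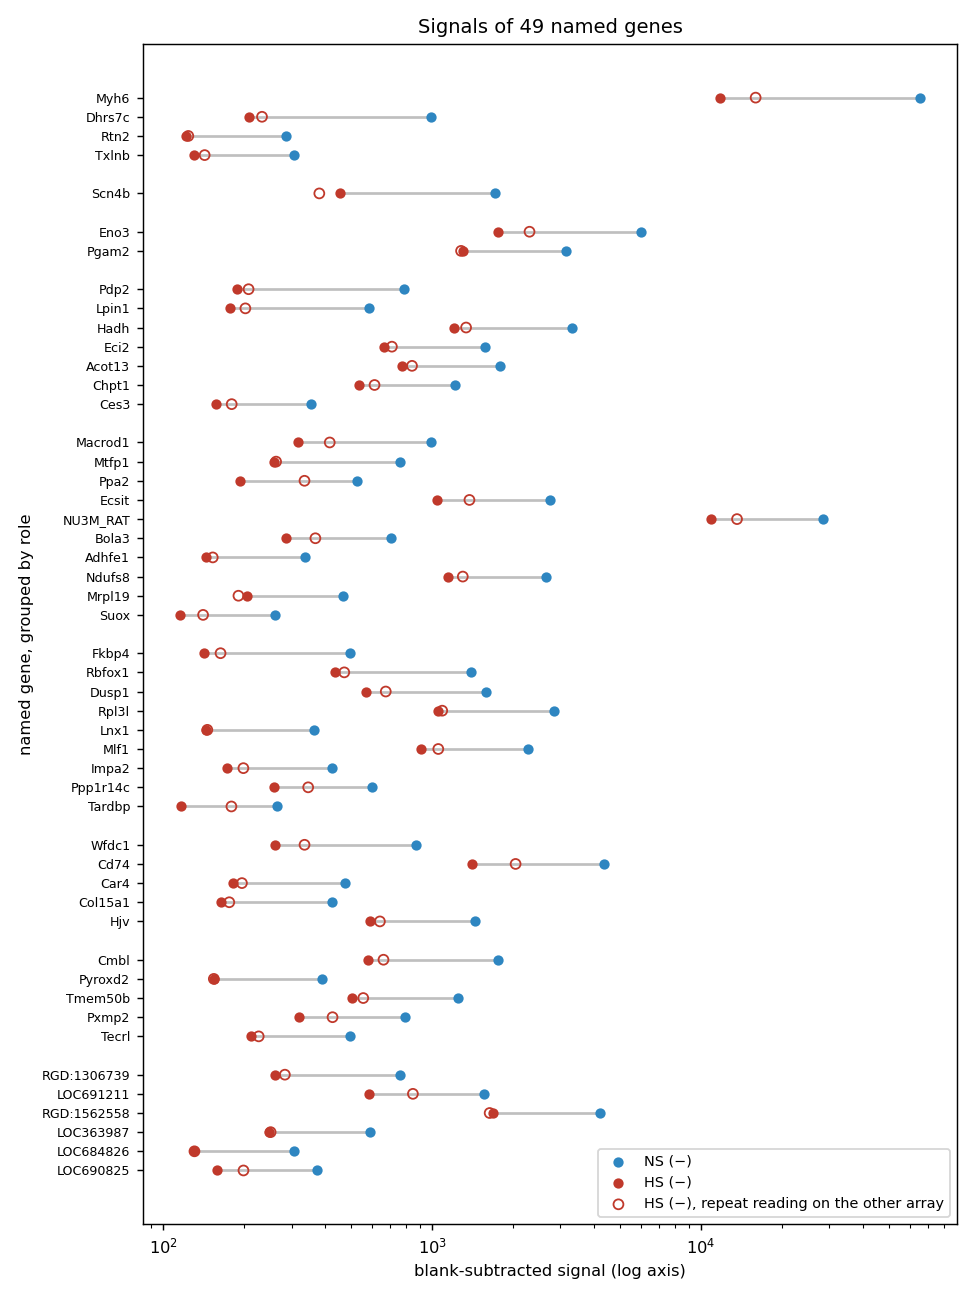
Blank-subtracted signals of 49 named genes on a log axis, grouped by role, in NS (−) (blue), in HS (−) (red) and in the repeat HS (−) reading on the other array (open red circles), with 1 pool per point. The open circles lie near the red points and left of the blue point in every gene shown, and stand furthest from the first reading in Ppa2.

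None of the 7 recalculations turned the direction of a named gene. The 50 genes stayed under 1 in all of them, and 11 of the genes stayed under 0.5 throughout. Among them were Myh6, Dhrs7c, Pdp2, Scn4b, Fkbp4, Eno3, Lpin1, Rbfox1, Macrod1 and Cd74. The ratio of Myh6 ran from 0.150 to 0.271, that of Pdp2 from 0.257 to 0.382 and that of Eno3 from 0.311 to 0.460. In contrast, NU3M_RAT ran from 0.382 to 0.779 and Ndufs8 from 0.432 to 0.651. The 0.779 of NU3M_RAT came from loess within blocks alone. In the other recalculations its log2 ratio was at most −0.80, with no subtraction. With the repeat HS (−) reading, 40 of the 50 were under 0.5. That reading is not independent of the choice of the genes, because it was the denominator of the chaetocin ratio by which they were also chosen.

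The windows around the annotated starts of Myh6 and Eno3 are shown because these genes combine a large fall with a motif of muscle genes, and that of Scn4b as a large fall without one. Sequences are from RefSeq on GRCr8, from 250 bases before to 50 bases after the start, and the capitals mark CATTCC or its complement GGAATG, the core of the MCAT motif that TEAD factors bind. The windows are at chr15:32411648-32411947 (minus strand), chr10:55868936-55869235 (plus strand) and chr8:54343623-54343922 (plus strand), each printed 5′ to 3′ on the strand of its gene.
Myh6: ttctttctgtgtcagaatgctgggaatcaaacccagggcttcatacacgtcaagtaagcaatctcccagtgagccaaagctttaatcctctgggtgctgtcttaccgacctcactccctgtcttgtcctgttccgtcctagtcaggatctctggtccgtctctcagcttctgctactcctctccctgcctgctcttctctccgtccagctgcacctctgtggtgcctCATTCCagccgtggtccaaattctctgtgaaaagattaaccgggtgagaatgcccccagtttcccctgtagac
Eno3: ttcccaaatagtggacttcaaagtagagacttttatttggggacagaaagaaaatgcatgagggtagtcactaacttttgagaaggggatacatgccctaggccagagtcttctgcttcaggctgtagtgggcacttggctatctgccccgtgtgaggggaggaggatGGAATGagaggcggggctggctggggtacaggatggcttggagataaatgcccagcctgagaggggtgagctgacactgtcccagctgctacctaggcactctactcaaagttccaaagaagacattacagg
Scn4b: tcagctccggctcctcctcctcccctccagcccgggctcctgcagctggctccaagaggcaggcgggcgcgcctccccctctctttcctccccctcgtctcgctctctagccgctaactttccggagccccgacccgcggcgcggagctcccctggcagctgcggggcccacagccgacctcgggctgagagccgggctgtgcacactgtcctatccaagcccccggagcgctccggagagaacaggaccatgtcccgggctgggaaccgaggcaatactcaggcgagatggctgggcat
In the window of Myh6 the motif begins 23 bases before the start on the strand of the gene, and in that of Eno3 82 bases before it on the other strand.

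A window was at hand for 35 of the 50 named genes and for 27457 genes in all. CATTCC on either strand was present in 7 of the 35 (20%), namely Myh6, Eno3, Pgam2, Rpl3l, Hjv, Mlf1 and Ppp1r14c, and in 13.9% of all windows. TATAAA was in 3 (8.57%), Pgam2, Car4 and Tecrl, and in 14.3% of all. The MEF2 motif was in 2 (5.71%), Hjv and Tecrl, and in 3.37% of all. AAGGTCA, a site of estrogen-related receptors, and the CArG box were in 0 of the 35, and in 4.37% and 1.64% of all. These letters describe the windows and say nothing of binding in these hearts.

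The ratio depended on level, mostly among dim spots. When the 12674 genes were divided by level into 10 bins of equal size, the median log2 ratio was −0.20 in the dimmest bin, 0.14 in bins 2 and 3, and then fell step by step to −0.11 in the brightest. The dimmest bin held levels from 2.47 to 6.21 and the brightest from 579 upward. In the dimmest bin 14.2% of the genes were under 0.5 and 1.18% over 2, whereas in bin 2 3.71% were under 0.5 and 9.23% over 2. The limit of detection moves with this edge, at 1.47 above blank in Cy5 and 3.98 in Cy3. A gene at both limits has a centered HS (−)/NS (−) ratio of 0.416. At the dimmest levels of bin 1 the limits thus admit ratios under 0.5 but none over 2. How much of the low ratios of this bin the limits account for was not tested. The same turn between bins 1 and 2, from −0.14 to 0.13, was present when the bins were formed from the other array. The genes in those bins had passed the same limits. The difference of the median between the brightest and the dimmest bin, 0.09, has no settled direction. It was −0.75 with the brightness around each spot subtracted, −0.23 with 50 added and −0.025 at 5 SD above blank. Without subtraction it was 0.59, and at 3 SD above blank and with bins from the other array 0.05. The remaining settings cannot decide its direction, since loess removes the trend with level and the deposited table holds the same ratios.

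**Figure D4:**
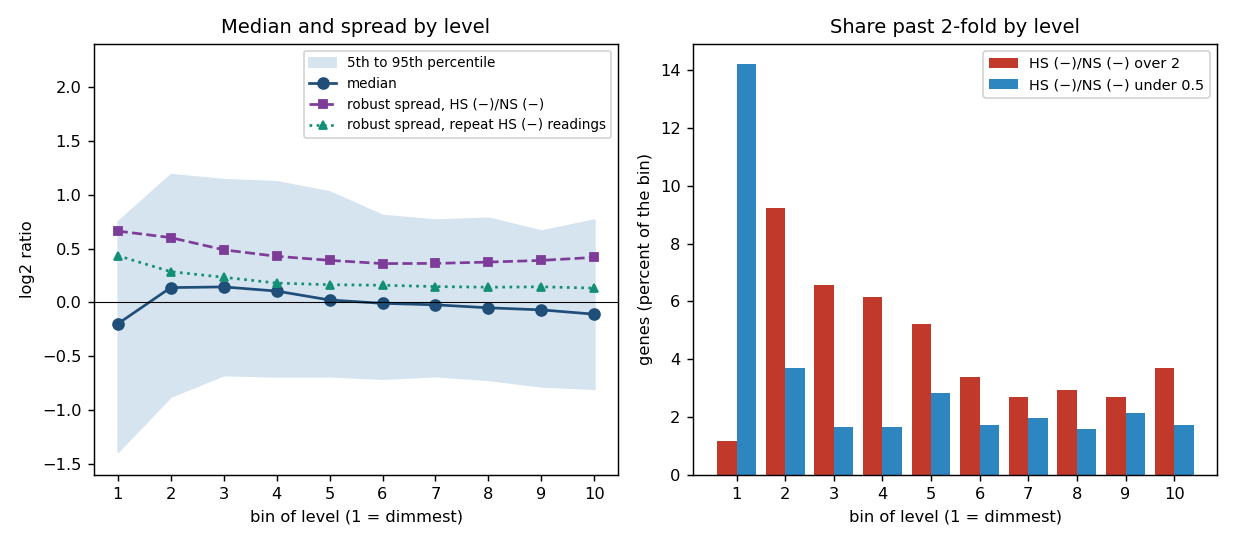
Left, the median log2 HS (−)/NS (−), its 5th to 95th percentile, and the robust spread (the median absolute deviation, scaled to match an SD) of the ratio and of the repeat HS (−) readings, by bin of level (1267 or 1268 genes each); right, the percentage of each bin over 2 (red) and under 0.5 (blue). Bin 1 is the only bin in which falls outnumber rises at 2-fold, and at its dimmest levels the detection limits admit no rise past 2-fold. Rises decline from 9.23% in bin 2 to 2.68% in bin 7.

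Above the dim range, the spread changed little. Its robust form was 0.66 in bin 1, 0.36 in bin 6 and 0.42 in bin 10. The share over 2 was 3.71% in bin 10, while the share under 0.5 stayed between 1.58% and 2.84% from bin 3 on. Most calls made without a minimum of level came from dim spots, as bins 1 to 5 held 359 of the 554 rises and 305 of the 421 falls.

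The repeat HS (−) readings give a measure of the technical error. Over the 4276 genes they were 1.11 times the first readings in the median, and after this factor was removed their log2 difference had an SD of 0.16 and a robust spread of 0.14. The robust spread of the ratio was 0.39, or 2.77 times as wide. Beyond 1.5-fold were 17.9% of the ratios and 0.351% of the repeat readings, and 5 genes differed by more than 2-fold between the readings. Of the risen genes, 121 of 132 had repeat readings within 1.2-fold of the first, as had 69 of 79 fallen genes. The share of all 4276 genes within 1.2-fold was not calculated, so these counts set neither group apart. Within 1 SD of the 2-fold limit lay 22 of the 132 rises (16.7%) and 31 of the 79 falls (39.2%). This measure covers at most labelling and hybridization in Cy5, and neither the NS (−) pool, which was read once, nor the differences between rats.

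**Figure D5:**
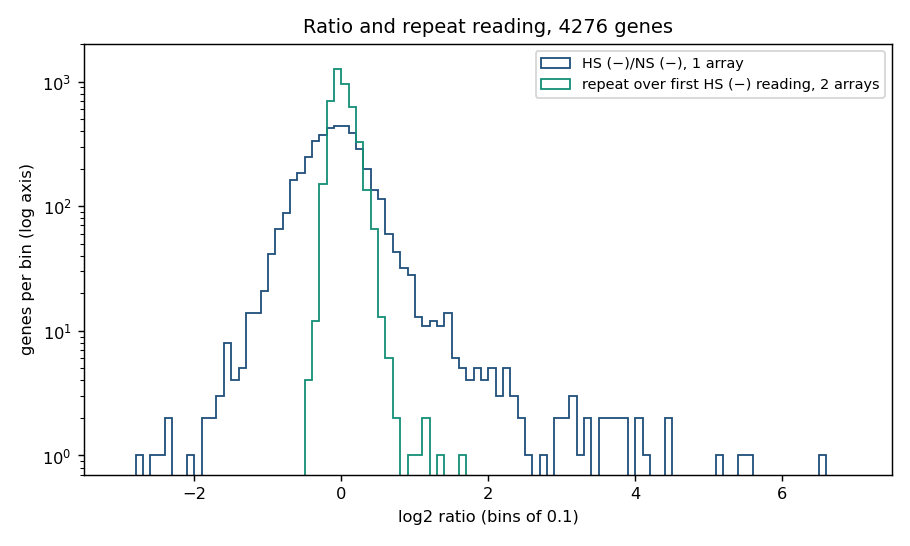
Genes per bin of 0.1 on a log axis against the log2 HS (−)/NS (−) of 1 array (blue) and the log2 of the repeat over the first HS (−) reading, centered on its median (green), for 4276 genes with a level of at least 100. The ratio is 2.77 times as wide as the repeat difference in robust spread and has a long tail to the right.

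Control spots gave a second measure. The positive controls, 2 probes with 24 spots each, had log2 ratios of 0.27 ± 0.06 and 0.31 ± 0.06 (SD over 24 spots of 1 array), with ranges of 0.18 to 0.39 and 0.21 to 0.42. Every spot of both probes thus lay on the side of HS (−). These spots did not enter the centering. Centered on either probe instead, every log2 ratio would be lower by its offset. The 5th percentile of the genes at a level of at least 100 was −0.76. At least 5% of these genes would then lie under 0.5, and at most 3.09% over 2. The exact counts were not taken, and which centering is the right one was not tested. Median log2 ratios of the 48 blocks ran from −0.22 to 0.07. The risen genes lay in 44 blocks and the fallen genes in 35, with at most 7 of either in a block. The brightness around a spot rose with the spot, to 43.6% of it in Cy5 and 40.5% in Cy3 in the median of spots above 500.

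Genes above the limit in 1 color only were mostly HS (−) genes, 3499 against 153 seen only in NS (−). These were dim, with a median HS (−) signal of 2.75 and a median NS (−) signal of 4.67. Of the 96 negative control spots, 24.0% also passed the limit in Cy5 only and 2.08% in Cy3 only, against 17.3% and 0.758% of the genes. Of the 4553 blank spots, which set the limits, 5.996% passed in Cy5 only and 8.57% in Cy3 only. The share of genes in Cy5 only thus lay between those of the blank and the negative control spots. Against the lowest NS (−) signal with a ratio, 191 of the 3499 were at least 2-fold and 27 at least 4-fold higher in HS (−), and the first of them was at least 13.4-fold higher. It read 47.4 in HS (−) and 54.6 in the repeat reading. Of the 153 seen only in NS (−), each was at least 2-fold lower in HS (−), but the limits alone set 2.41-fold.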

How the data were processed

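The members and gene lists were chosen with earlier results of these data known. The authors deposited median spot intensities in Cy5 and Cy3 from scans at 3 gains, and a normalized log2 value per gene. Here the mean of the blank spots, 5% trimmed at each end, was subtracted in each channel, spots above it by more than 2 SD in both were kept, and log2(Cy5/Cy3) was centered on the median over genes and quality control spots. The deposited log2 values were these ratios with the sign turned, with a largest difference of 0.000201 over the 12674 genes. Scale, centering and direction were inferred from this match. Level was the geometric mean of both signals, with a minimum of 100. Saturated spots (65535) were kept. With 1 array the precision is limited, and only fold limits were applied.

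The genes to be named were the 50 of the study's list, and the 10 highest and 10 lowest ratios at a level of at least 100 with the 5 highest and 5 lowest of the brightest of 10 bins by level, with 1 gene of the list not reported here, and at most 2 IDs per direction printed without a name. Symbols were updated through RefSeq accessions for 35 genes; 1 accession matched more than 1 gene and kept its listed name. The other 20124 IDs were not named, so the pathway and marker lists (20 of 342 and 2 of 72 genes with an ID) were not analysed here. Alternatives were other background corrections, loess, an added constant of 50, stricter detection, other level minimums and folds, and the repeat HS (−) reading. The steps were tested on simulated data. Python 3.11.15, numpy 2.4.6, pandas 2.3.3, matplotlib 3.10.9, R 4.3.3 and limma 3.58.1 were used.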

Additional observations from a re-analysis of the deposited data

Results flagged for a closer look

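Spots outside the gene comparison also gave signal. Of the 521 quality control spots, 221 were above the blank limit in both colors, and they entered the centering of the ratios. Of the 96 negative control spots, 23 were above it in Cy5 only, a share given beside the genes seen in HS (−) only.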

How the results depend on the processing

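The deposited table and the removal of saturated spots kept every count within 1.5-fold. Genes over 2 at a level of at least 100 numbered 229 without background subtraction, 86 at a level of at least 200, and 310 and 66 at 1.5-fold and 3-fold. Genes under 0.5 numbered 181 with spot background, 23 without subtraction, and 454 and 14 at those folds. Of the 79 falls, 51 were shared with spot background subtraction and 20 with no subtraction, and 35 with normexp and loess, which called 87. At any level, genes over 2 numbered 253 without subtraction, 130 with normexp and loess, 130 with 50 added and 352 at 5 SD above blank, and genes under 0.5 numbered 27, 87, 81 and 215. The difference of the median between the brightest and the dimmest bin became −0.75 with spot background, 0.59 without subtraction, −0.022 with normexp and loess, −0.0078 with loess, −0.23 with 50 added and −0.025 at 5 SD. Loess removes the trend with level, so the values with loess cannot decide its direction. The spread stayed within 1.5-fold. The cause was not tested. Of the 50 named genes, the log2 ratio moved by more than the SD of the repeat readings in 50 without subtraction, 36 with normexp and loess, 21 with spot background, 19 with the repeat HS (−) reading, 2 with loess and 1 with 50 added, and stayed below 0 in all. Loess within blocks was left out of these counts. Taking the level from the other array, chosen after seeing the data, gave 175 genes over 2 and 72 under 0.5. No paired analysis was possible because the comparison has 1 array. Signal near blank limits the ratios of dim genes.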
